A study of Mus musculus with 22 samples.

Results

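Potassium channel genes were taken here as all genes whose symbol starts with Kcn in the deposited annotation. The rule gave 77 of 15297 genes, and these held 676 of the 112366 endogenous features, a feature being a place where RNA 5′ ends were counted, classed by the part of the gene in which it lies. Of the 77 genes, 74 fell into 20 subfamilies by symbol, and the other 3 were RNAs named after a neighbouring channel gene (Kcnq1ot1, Kcnmb4os1 and Kcnmb4os2). Reads were found for 71 members, and 6 had none in any library (Kcnh4, Kcnh8, Kcnj2, Kcnk12, Kcnq1 and Kcnn4).

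The groups were 5 BERKO mice, which carry no functional estrogen receptor beta (ERb-/-, gene Esr2), and 6 wild-type (WT) mice, all C57BL/6 males of 16 to 20 weeks. A needle puncture of M1, the primary motor cortex, gave a right and a left biopsy per mouse, 22 in all, with 10 ng of RNA from each. The labels do not give the allele or whether the groups were littermates. The submitters left out 1 BERKO sample as an outlier, and BERKO replicate 1 was not analysed here. Single-cell tagged reverse transcription (STRT) marks the 5′ end of each cDNA, so a read lies where the captured RNA starts.

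Potassium channels let potassium leave the neuron and so return its membrane to rest. Voltage-gated members end the action potential and set firing rate, inward rectifiers and leak channels hold the resting potential, and calcium-activated members couple calcium entry to repolarisation. In cortex, pyramidal cells, fast-spiking interneurons and astrocytes are known to use different sets of them, astrocytes chiefly for the uptake of extracellular potassium.

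Total reads per mouse ranged from 1017873 to 1706160 in BERKO and from 1429548 to 2911717 in WT, and from 249751 to 2018833 per biopsy. Libraries were read from the column names to lie on other plate rows for BERKO than for WT, and for right than for left, so plate row cannot be told apart from genotype or side. Esr2 had 13 reads in all, 10 of them in 2 BERKO biopsies and 3 in 1 WT biopsy, too few to check the genotype labels. On the first principal component of 6045 genes, both biopsies of WT replicate 1 (-48.58 on the left, -39.11 on the right) and the left biopsy of WT replicate 2 (-40.63) stood apart from the other 19 biopsies (-11.37 to 19.62). The right biopsy of WT replicate 3 stood apart in its introns: 4.23% of its gene reads lay there, against at most 2.59% in the others. In bulk tissue, fewer cells of a type and less RNA per cell cannot be told apart.

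The first property that set potassium channel genes apart from most genes was where their 5′ ends lay. Over all mice, 33.1% of their 44754 reads fell upstream of the annotated start or in the 5′ UTR, called the promoter here, and 65.3% fell in coding sequence, 3′ UTR or introns, called the gene body. For all genes these shares were 79.0% and 18.1%. Among the 51 members with 100 or more reads, the median promoter share was 13.0%, against 83.7% over the 9450 genes with as many reads. A promoter share over 50% was found in 17 of these members (33.3%, against 70.2% of all genes), and a share under 10% in 24 (47.1%, against 17.6%). The 24 include the noncoding Kcnq1ot1, whose reads have classes of their own, which gives it a share of 0. Other channel families were not alike in this. The median was 13.4% over 8 voltage-gated sodium channel genes and 4.27% over 15 calcium channel genes, but 61.1% over 12 GABA-A receptor genes and 58.2% over 13 ionotropic glutamate receptor genes.

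Promoter sequence is shown for 6 members with 1 annotated start in RefSeq (GRCm38.p6), 4 whose reads lay mostly at the promoter and 2 whose reads lay mostly inside the gene. Each line holds the 60 bases just before the start, 5′ to 3′ on the gene's strand, and capitals mark a TATA box (TATAAA) or a GC box (GGGCGG, on either strand). The deposited features are on mm9, so these windows were not laid over them.
Kcnj13 (chr1:87394730-87394789, minus strand, promoter share 100%): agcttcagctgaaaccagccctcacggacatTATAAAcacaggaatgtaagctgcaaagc
Kcnj9 (chr1:172329323-172329382, minus strand, promoter share 85.8%): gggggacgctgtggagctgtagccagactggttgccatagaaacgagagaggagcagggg
Kcnj3 (chr2:55435910-55435969, plus strand, promoter share 80.5%): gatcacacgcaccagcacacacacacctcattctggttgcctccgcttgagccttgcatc
Kcnh7 (chr2:63184288-63184347, minus strand, promoter share 82.7%): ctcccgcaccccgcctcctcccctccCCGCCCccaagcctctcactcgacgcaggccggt
Kcnh1 (chr1:192190717-192190776, plus strand, promoter share 5.59%): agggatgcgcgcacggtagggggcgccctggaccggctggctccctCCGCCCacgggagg
Kcnk1 (chr8:125995042-125995101, plus strand, promoter share 0.569%): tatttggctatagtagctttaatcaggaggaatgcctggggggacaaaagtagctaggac

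RefSeq held promoter windows (250 bases before the start to 50 after) for 57 of the 77 members, 81 windows in all. On either strand, TATAAA was found in 4 of the 81 (4.94%, in Kcnj13, Kcnj9, Kcnj16 and Kcnab1), against 13.6% of all 32851 windows, and GGGCGG in 41 (50.6%), against 35.7%. CCAAT was found in 33.3% of the members' windows and 37.4% of all windows. The estrogen response half-site AGGTCA was found in 5 of the members' windows (6.17%, in Kcnh1, Kcnf1, Kcnip4, Kcnj16 and Kcnk10), against 16.3% of all windows. The full palindrome, GGTCA followed after 3 bases of any kind by TGACC, shares its GGTCA with the half-site and was found in 0 of the 81 and in 0.07% of all windows. Median GC content was 59.7% over the members' windows and 52.7% over all.

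Members of 1 subfamily could differ widely in promoter use. All reads of the inward rectifiers Kcnj13 and Kcnj16 lay at the promoter, each in 1 feature. The G protein-gated inward rectifiers were divided, with shares of 85.8% for Kcnj9 and 80.5% for Kcnj3 but 18.8% for Kcnj6. Kcnk2 and Kcnk10, mechanically gated leak channels, had 88.6% and 79.2%, against 0.569% for the leak channel Kcnk1. Of the cytosolic partners of voltage-gated channels, Kcnab2 had 61.3%, Kcnab1 86.7% and Kcnab3 80.0%, while the calcium-binding Kcnip genes were divided, with 83.2% for Kcnip3 and 69.2% for Kcnip1 but 30.5% for Kcnip2 and 8.64% for Kcnip4. In contrast, no read of Kcnma1, Kcnv1, Kcnc4 or Kcns1 lay at a promoter.

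**Figure D1:**
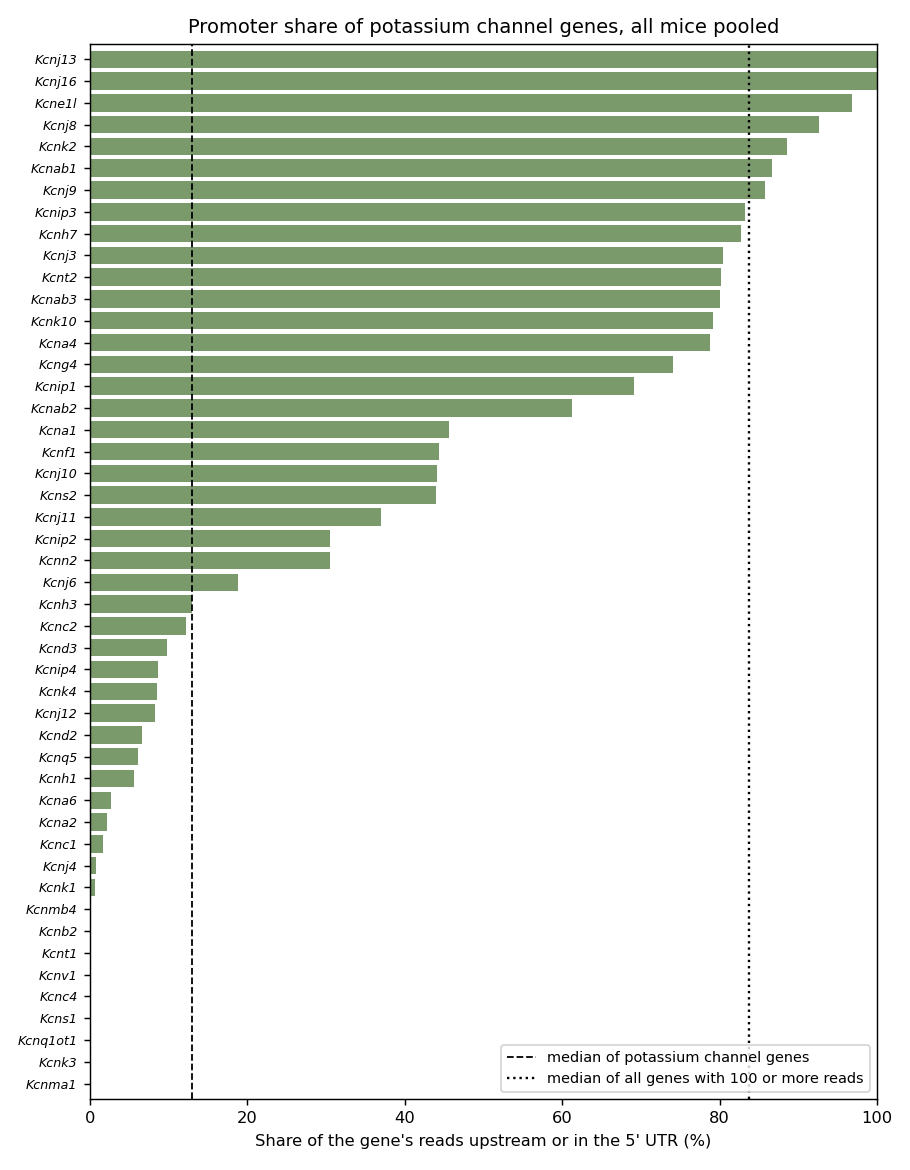
Share of reads upstream of the start or in the 5′ UTR (horizontal axis, percent), all mice pooled, for 48 potassium channel genes with 100 or more reads. The dashed line is the median of all 51 such members (13.0%) and the dotted line the median of all genes with as many reads (83.7%); reads of the noncoding Kcnq1ot1 have classes of their own and count in neither promoter nor gene body.

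By read share, Kcnab genes held 16.7% of the potassium channel reads, Kcnj genes 14.1% and Kcna genes 13.9%, and the 10 members with most reads held 52.5%. Per kilobase of the longest GENCODE coding transcript, mean levels over the 11 mice were 75.5 CPM per kb for Kcnab2 (a cytosolic subunit of Shaker-type channels), 65.15 for Kcnk1 (a weakly rectifying leak channel), 38.2 for Kcnip3 (a calcium sensor that binds A-type channels), 30.1 for Kcna1 (an axonal Shaker-type channel) and 20.6 for Kcnj4 (a strong inward rectifier). CPM is a library's read count scaled to 1e+06 gene reads, with TMM factors. Since 5′ ends are counted, longer transcripts need not give more reads. Reads were present in every mouse for 44 members and in every biopsy for 27.

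BERKO mice were then compared with WT mice, with both biopsies of a mouse summed. No potassium channel gene passed the test: 0 of the 48 members tested had an adjusted p under 0.05 (edgeR quasi-likelihood test, Benjamini-Hochberg), against 7 of 9025 genes (0.0776%). DESeq2 called 1 member and limma-voom 0. An unadjusted p under 0.05 was found for 8 of the 48 members (16.7%), against 9.92% of all genes. Of these, 7 had a higher level in BERKO (14.6%, against 5.27% of all genes) and 1 a lower level (2.08%, against 4.64%). The median log2 fold change of the members tested was 0.16, against -0.01 over all genes, and 28 were positive and 20 negative. In 3 members every BERKO mouse lay above every WT mouse (6.25%, against 0.731% of all genes), and in 0 members below (against 0.598% of all genes).

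Kcnh1, an ether-a-go-go channel of neurons, came closest to the threshold. It had 87.0, 98.1, 80.5, 108 and 69.1 CPM in the BERKO mice, against a lowest value of 28.7, a median of 44.1 and a highest of 57.7 CPM in the 6 WT mice. The genotypes did not overlap. The log2 fold change was 1.04 ± 0.23 (SE), with an adjusted p of 0.0778 (edgeR), ranging from 0.0112 to 0.237 over the alternatives. The gene passed in 6 of 23 alternatives, among them DESeq2 and the fit without WT replicate 4 (adjusted p 0.0369, edgeR), and it did not pass with limma-voom (0.154). With both WT replicate 1 libraries and the left one of WT replicate 2 dropped, the log2 fold change was 0.96 (adjusted p 0.112, edgeR).

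Kcnj4 was also without overlap, at 52.4, 53.4, 58.9, 51.0 and 69.1 CPM in the BERKO mice and from 11.4 to 48.0 CPM (median 38.1) in WT mice. The lowest BERKO and the highest WT mouse were close, and WT replicate 1 was the lowest. The log2 fold change was 0.77 ± 0.29 (SE, adjusted p 0.374, edgeR).

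Other members with an unadjusted p under 0.05 overlapped between genotypes. Kcna1 averaged 139 ± 27.7 CPM in BERKO and 106 ± 21.7 CPM in WT (SD, n = 5 and 6). Kcnj12, a strong inward rectifier, averaged 20.7 ± 12.5 CPM in BERKO and 9.70 ± 6.92 CPM in WT, with a log2 fold change of 1.08 ± 0.51 (SE), or 0.69 without BERKO replicate 5. Kcnj13, best known from choroid plexus and retinal pigment epithelium, averaged 17.4 ± 9.83 CPM in BERKO and 7.08 ± 3.37 CPM in WT, with adjusted p 0.426 (edgeR) for a log2 fold change of 1.297 ± 0.53 (SE). Leaving out the 3 WT libraries that stood apart, Kcna1 had a log2 fold change of 0.17, against 0.39 ± 0.19 (SE) with all libraries, and 5 of 45 members had an unadjusted p under 0.05.

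The lower value was that of Kcnq1ot1, a long noncoding RNA transcribed from within Kcnq1 on the opposite strand. It had 16.2, 6.49, 7.74, 6.37 and 0 CPM in the BERKO mice. In WT mice the median was 11.7 CPM, and WT replicate 3 (120 CPM) and WT replicate 1 (77.6 CPM) stood far above it. The log2 fold change of -2.48 ± 1.02 (SE, adjusted p 0.466, edgeR) was -1.74 without WT replicate 3. Its transcript shares near-identical stretches (up to 431 bases at 96.1% identity) with those of 32 other genes, so the origin of its reads is uncertain. No read of Kcnq1 itself was found.

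**Figure D2:**
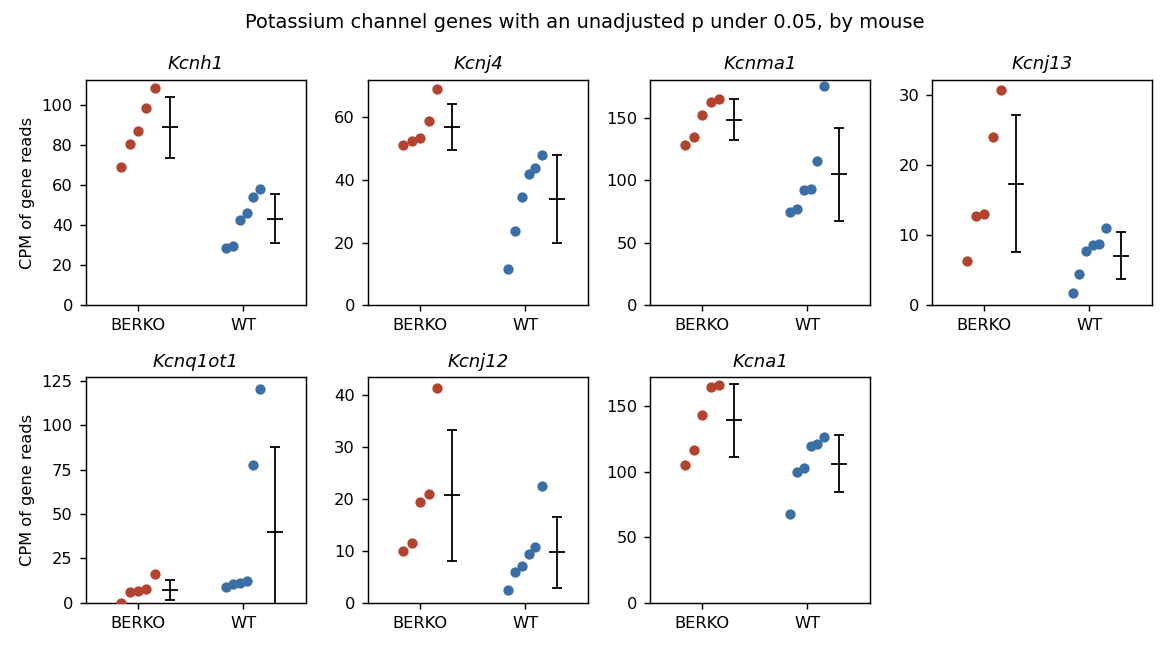
Level of 7 members with an unadjusted p under 0.05 (CPM of gene reads after TMM), with a point per mouse, 5 BERKO (left) and 6 WT (right), and the mean ± SD as bars (cut at 0 for Kcnq1ot1). BERKO and WT points do not overlap for Kcnh1 and Kcnj4, and 2 WT mice carry the mean of Kcnq1ot1.

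Further members were among the 12 of smallest p. Kcnk1 averaged 168 ± 23.1 CPM in BERKO and 127 ± 40.0 CPM in WT (log2 fold change 0.41 ± 0.22 SE). Kcnc4, of the family that lets interneurons fire fast, had a log2 fold change of 0.68 ± 0.37 (SE), and Kcnj11, the pore of the ATP-sensitive channel, one of 1.00 ± 0.55 (SE). None of these passed the threshold (adjusted p 0.535 to 0.549, edgeR). Leaving out the same 3 WT libraries, log2 fold changes of Kcnk1 and Kcnc4 were 0.24 and 0.35.

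By subfamily, summed levels are given as a description with no test. Inward rectifiers (Kcnj) summed to 358 ± 25.04 CPM in BERKO and 328 ± 71.1 CPM in WT, and 7 of the 10 tested had positive log2 fold changes, with Kcnj3, Kcnj9 and Kcnj16 negative. All 4 Kcnc genes had positive log2 fold changes (0.24 to 0.68), with sums of 213 ± 41.4 CPM in BERKO and 159 ± 37.3 CPM in WT. Shaker-type Kcna genes summed to 364 ± 49.0 CPM in BERKO and 313 ± 99.4 CPM in WT. Without WT replicate 1, the WT mean was 344 CPM for Kcna genes and 347 CPM for Kcnj genes. The Kcnab partners summed to 409 ± 79.4 CPM in BERKO and 391 ± 97.3 CPM in WT, and without WT replicate 1 the WT mean of 421 CPM was above that of BERKO.

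A-type channels, their calcium-binding partners and Kcnq genes had lower mean sums in BERKO. Leaving out 1 WT mouse could narrow these differences and, for Kcnip genes alone, remove the difference. Kcnd genes summed to 34.9 ± 13.1 CPM in BERKO and 41.1 ± 15.0 CPM in WT, and Kcnip genes to 154.5 ± 28.9 CPM in BERKO and 176 ± 63.9 CPM in WT. Kcnq genes, which carry the M current that damps repetitive firing, summed to 67.1 ± 14.6 CPM in BERKO and 83.0 ± 43.3 CPM in WT. These differences were smaller than the SDs of the WT mice. Without WT replicate 3, the WT mean was 153 CPM for Kcnip genes, no longer above BERKO, and 71.6 CPM for Kcnq genes. Without WT replicate 1, it was 72.6 CPM for Kcnq genes and 36.98 CPM for Kcnd genes. Leak channels (Kcnk) summed to 237 ± 29.7 CPM in BERKO and 189 ± 52.6 CPM in WT, and the Kcnh family to 141 ± 17.5 CPM in BERKO and 101 ± 32.5 CPM in WT, led by Kcnh1. Without WT replicate 1, the WT mean was 209.8 CPM for Kcnk genes.

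Subunits of the Kcnf, Kcnv, Kcns, Kcng, Kcnmb and Kcne families form no channel alone but modulate those that do. Kcnf1 averaged 57.6 ± 11.5 CPM in BERKO and 59.95 ± 11.9 CPM in WT, and Kcnv1 59.3 ± 14.7 CPM in BERKO and 43.3 ± 21.5 CPM in WT. Kcns genes summed to 25.7 ± 6.64 CPM in BERKO and 28.03 ± 8.39 CPM in WT, led by Kcns1, and Kcng genes to 12.9 ± 6.10 CPM in BERKO and 12.2 ± 3.88 CPM in WT, led by Kcng4. The Kcnmb subunits of the large-conductance channel, led by Kcnmb4, summed to 19.0 ± 8.22 CPM in BERKO and 10.8 ± 6.84 CPM in WT. Sodium-activated Kcnt genes summed to 12.0 ± 3.98 CPM in BERKO and 12.4 ± 7.35 CPM in WT, and small-conductance, calcium-activated Kcnn genes (led by Kcnn2) to 8.62 ± 4.68 CPM in BERKO and 13.6 ± 9.42 CPM in WT. Kcne genes, led by Kcne1l, summed to 9.14 ± 5.99 CPM in BERKO and 8.26 ± 2.97 CPM in WT. Scaled to spike-in reads instead, the sums of Kcnf1, Kcns and Kcnt genes turned from lower to higher in BERKO (log2 ratios 0.16, 0.02 and 0.17), while those of Kcnd, Kcnip and Kcnq genes were still lower.

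**Figure D3:**
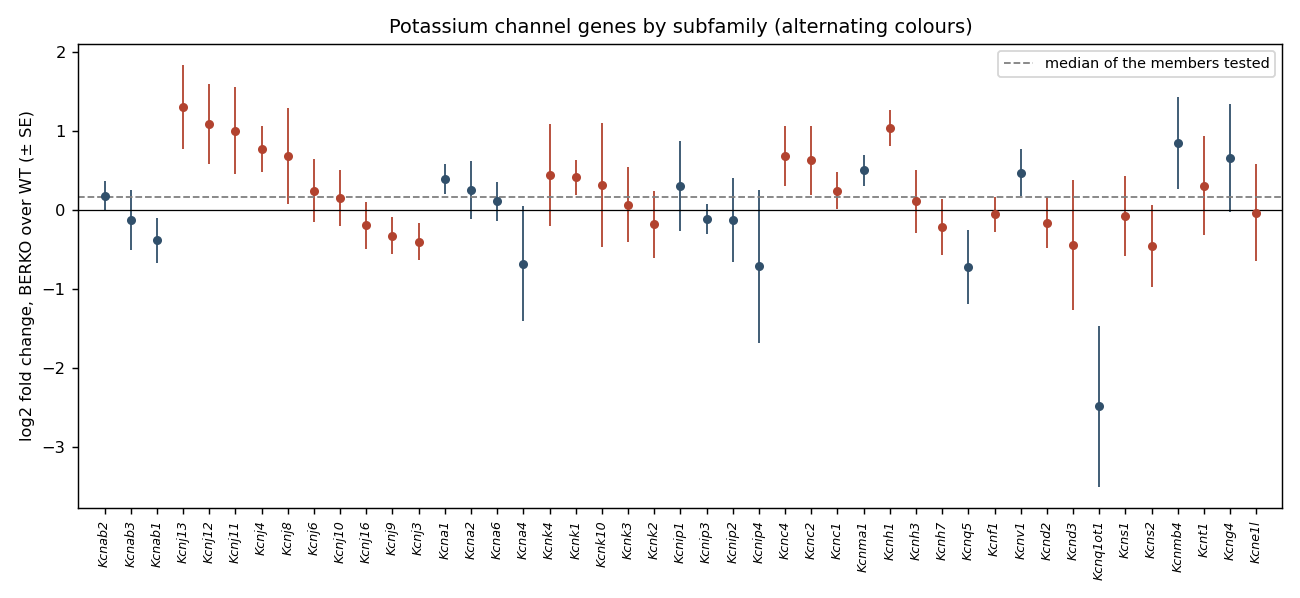
Log2 fold change, BERKO over WT, of 45 members tested (points, with SE as bars), grouped by subfamily in alternating colours. The dashed line is the median of 0.16 over all 48 tested; Kcnh1 stands highest relative to its error, and Kcnq1ot1 is the lowest with the widest error.

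Reads inside genes and reads at promoters did not move alike. Over all genes, the promoter share of reads was 76.7% ± 1.48 in BERKO and 80.2% ± 1.75 in WT (SD, n = 5 and 6), a difference of -3.51 percentage points (two-sided exact permutation test over 462 splits, p 0.00866; the smallest possible p was 0.00216). Potassium channel genes had a promoter share of 28.8% ± 2.12 in BERKO (26.1% to 32.0%) and 36.6% ± 4.58 in WT (32.0% to 44.5%). Their promoter reads summed to 730 ± 78.2 CPM in BERKO and 811 ± 134 CPM in WT, and their gene body reads to 1793 ± 122 CPM in BERKO and 1386 ± 316 CPM in WT.

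The same split appeared gene by gene, in the members as in all genes. Of the 23 tested members with a promoter share under 10%, 16 had a positive log2 fold change (median 0.31), and of 1509 such genes overall 66.8% did (median 0.18). Kcnq1ot1, which was lower in BERKO, counts among the 23, although its reads lie in neither promoter nor gene body. Of the 16 tested members with a share over 50%, 6 were positive (median -0.12), and of 6381 such genes overall 41.9% were (median -0.07). Kcnh1 and Kcnj4 belong to the first kind, while Kcnj3, Kcnj9 and Kcnab1 belong to the second.

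At the level of single features, 0 of 61 tested potassium channel features passed the test (edgeR), against 15 of 13128 features (0.114%). An unadjusted p under 0.05 was found for 12 of them (19.7%), against 11.6% of all features. All 12 were higher in BERKO (against 5.63% of all features), and 0 were lower (against 5.93%). Of the 12, 11 lay in a gene body, 9 of these in a 3′ UTR, and they belonged to 9 genes. Within classes the background was higher. In gene bodies 26.8% of the members' tested features were higher by this measure, against 11.3% of all features there (1.27% were lower). In 3′ UTRs these shares were 40.9% of the members' features and 14.4% of all (0.883% were lower). Among 41 tested gene body features of the members, 85.4% had a positive log2 fold change, against 74.0% of all 5207 gene body features, and among 20 promoter features 5 did, against 32.2% of all 7072.

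A 3′ UTR start of Kcnh1 (mm9 chromosome 1, position 194330522, plus strand) held 61.1% of that gene's reads and averaged 57.4 ± 19.2 CPM in BERKO and 26.1 ± 8.25 CPM in WT (log2 fold change 1.08 ± 0.29 SE, adjusted p 0.183, edgeR). A coding sequence start of Kcnma1 (mm9 chromosome 14, position 24133356, minus strand) averaged 15.8 ± 6.93 CPM in BERKO and 3.92 ± 2.18 CPM in WT (log2 fold change 1.93 ± 0.56 SE, adjusted p 0.193, edgeR).

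**Figure D4:**
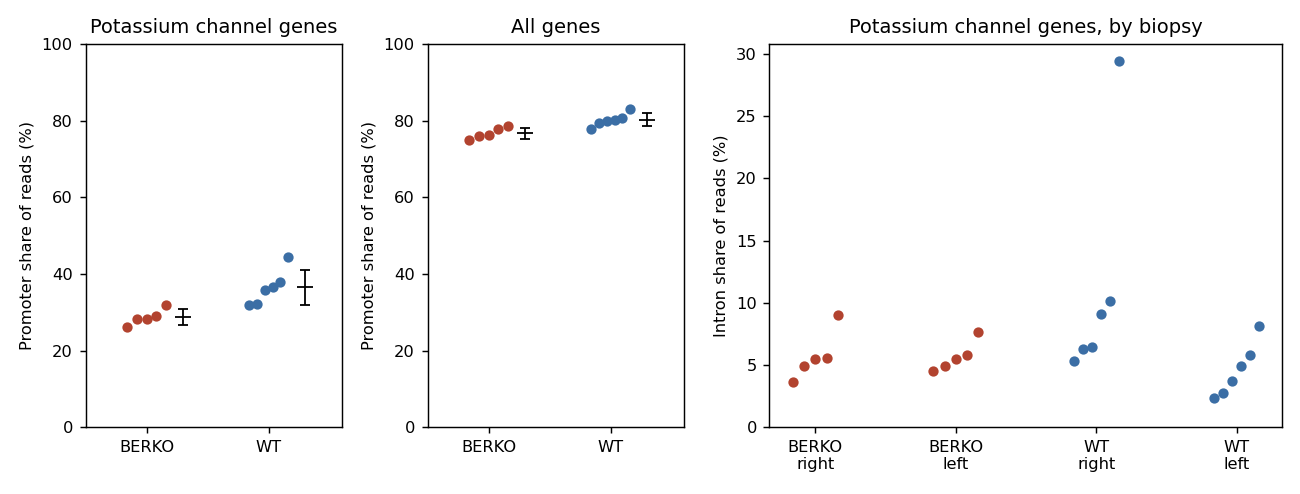
Promoter share of the reads of potassium channel genes (left) and of all genes (middle) by mouse, with mean ± SD, and intron share of potassium channel reads by biopsy (right), all in percent, BERKO in red and WT in blue. The BERKO mice lie at 26.1% to 32.0% and the WT mice at 32.0% to 44.5% in the left panel, and the right biopsy of WT replicate 3 stands alone at 29.4% in the right panel.

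Each class was also scaled to its own total, in which a shift of all genes between classes is not seen. For promoter sums 0 of 20 members passed (edgeR, against 5 of 6832 genes, 0.0732%), with an unadjusted p under 0.05 in 2 (10%, against 8.56% of all genes). For gene body sums 0 of 36 passed (0% of 4783 genes did), with an unadjusted p under 0.05 in 2 (5.56%, against 6.65%). Kcnh1 had a gene body log2 fold change of 0.72 ± 0.24 (SE, adjusted p 0.546, edgeR). That of Kcnq5, an M-current channel, was -1.13 ± 0.56 (SE), and -0.42 without WT replicate 3. At the promoter, Kcnj13 had 1.39 ± 0.51 (SE, adjusted p 0.404, edgeR) and Kcnj3 -0.47 ± 0.28 (-0.31 without BERKO replicate 4). The promoter of Kcnip2 had 5.39, 6.49, 0.774, 3.19 and 0 CPM in the BERKO mice and from 5.44 to 21.8 CPM in WT mice, a log2 fold change of -1.55 ± 0.71 (SE, adjusted p 0.557, edgeR).

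The difference of the genotype effects, promoter minus gene body, was tested in 1 model with the mouse as a block, in which 0 of 35 members passed (0% of 7204 genes). An unadjusted p under 0.05 was found in 2 (5.71%, against 6.5% of all genes). These were Kcnj10, the potassium uptake channel of astrocytes (1.40 ± 0.64 SE), and Kcnip2 (-2.17 ± 0.99 SE, adjusted p 0.742 for both, edgeR). Kcnk10 came next, at -4.29 ± 2.36 (SE). Its gene body held only 30 reads, and among WT mice only WT replicate 3 had any (2.44 CPM). The fit without that mouse gave -6.61. No WT gene body read was left there, so the size of that value cannot be read.

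Introns held 8.90% of the members' reads, against 2.18% of all gene reads, and were unevenly spread over libraries. In the right biopsy of WT replicate 3, 29.4% of the potassium channel reads were intronic, against 2.40% to 10.1% in the other 21 biopsies. That biopsy held 12.3% of the WT gene reads but 77.0% of the WT reads of Kcnip4, 50.9% of those of Kcnq1ot1, 48.1% of those of Kcnb2 and 46.8% of those of Kcnq5. Kcnip4, whose reads were 87.6% intronic, thus averaged 21.6 ± 12.3 CPM in BERKO and 34.3 ± 56.3 CPM in WT, with a WT median of 12.8 CPM.

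Kcnma1, the pore of the large-conductance calcium- and voltage-activated channel, passed the test once intron features were left out. With all features it averaged 149 ± 16.6 CPM in BERKO and 105 ± 37.4 CPM in WT (log2 fold change 0.50 ± 0.20 SE, adjusted p 0.400, edgeR). Its highest WT value, 175 CPM, was that of WT replicate 3. Without intron features, it had 144, 163, 162, 135 and 118 CPM in the BERKO mice, against a lowest of 61.4, a median of 75.6 and a highest of 99.8 CPM in WT mice. The genotypes then no longer overlapped. In that fit, chosen after seeing the data, Kcnma1 passed the test with a log2 fold change of 0.89 (adjusted p 0.0371, edgeR), the only one of 44 members, where 8 of 8815 genes passed (0.0908%). The adjusted p of Kcnh1 was 0.065 there. Without the right biopsy of WT replicate 3, but with introns, Kcnma1 had a log2 fold change of 0.76 ± 0.17 (SE, adjusted p 0.138, edgeR). All reads of Kcnma1 lay in the gene body. Scaled to gene body totals, with introns and all libraries, its log2 fold change was 0.17 ± 0.21 (SE, adjusted p 0.942, edgeR). Of the 12 features with an unadjusted p under 0.05, 3 belonged to Kcnma1, all in exons.

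Reads of 6 of the 71 members with reads (8.45%) were found in WT mice alone, and of 0 in BERKO mice alone. Over the 14126 genes with reads these shares were 6.58% and 1.66%, with more reads in all from WT mice. Kcnq3, an M-current channel, had 0 reads in BERKO and 56 in 4 WT mice (17, 11, 24, 0, 4 and 0 in WT replicates 1 to 6). With reads pooled over mice, it was at least 9.57-fold lower in BERKO, set against a floor of 3 reads over the BERKO group. This limit covers counting error only and not the spread between mice. All 56 reads lay in introns, 24 of them in the right biopsy of WT replicate 3 and 17 in that of WT replicate 1. Kcnh2 and Kcnh5 had 14 reads each, Kcnk6 10, Kcnj5 9 and Kcnd1 5, all too few for a statement. For the 6 members without reads, a floor of 3 reads corresponds to 0.462 CPM over the BERKO mice and 0.237 CPM over the WT mice, a limit for counting error only.

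Genes of channel complexes outside the Kcn family were set beside the members. Of 37 listed partners, 29 were tested, and 0 passed (edgeR); the 4 of smallest p also passed in 0 of 23 alternatives, DESeq2 and limma-voom among them. At an unadjusted p under 0.05, 3 were higher in BERKO: Dlg4, the postsynaptic scaffold that clusters Shaker-type channels (0.63 ± 0.22 SE, adjusted p 0.330, edgeR), Calm3, a calmodulin gene (0.31 ± 0.12 SE), and Cntnap1, of the paranodal junction (0.53 ± 0.23 SE). Dpp6, an auxiliary subunit of A-type channels, was 1 of 2 lower (-0.36 ± 0.17 SE). Over all genes, 5.27% were higher and 4.64% lower by this measure. The median log2 fold change was 0.17 over the partners and -0.01 over all genes.

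Sums of cell type markers are given beside these values. None of the markers tested was called for genotype (edgeR), and BERKO and WT sums overlapped in every list but that of microglia. Summed levels of 6 excitatory neuron markers were 1700 to 2536 CPM in BERKO and 1104 to 1921 CPM in WT, and those of 6 interneuron markers 769 to 1067 CPM in BERKO and 907 to 1144 CPM in WT. Astrocyte markers (8) summed to 2275 to 3228 CPM in BERKO and 1903 to 2807 CPM in WT, microglia markers (7) to 818 to 1014 CPM in BERKO and 462 to 813 CPM in WT, and endothelial markers (6) to 361 to 489 CPM in BERKO and 179 to 384 CPM in WT. Oligodendrocyte markers (7) summed to 5376 to 13835 CPM in BERKO and 2087 to 11558 CPM in WT, and their precursors' markers (4) to 144 to 265 CPM in BERKO and 106 to 211 CPM in WT. Pericyte and smooth muscle markers (6) summed to 398 to 746.5 CPM in BERKO and 221 to 478 CPM in WT, and striatal markers (8) to 178 to 334 CPM in BERKO and 45.0 to 255 CPM in WT. Meningeal fibroblast markers (6) summed to 6056 to 10753 CPM in BERKO and 1735 to 8975 CPM in WT. Every listed marker had reads except Drd1a, a striatal marker that the files do not list under that name. Their part in the potassium channel values was not tested.

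Each side was also tested alone. On the right, 0 of 42 members passed (edgeR, against 5 of 7696 genes, 0.065%), with an unadjusted p under 0.05 in 6 (14.3%, against 8.25%). On the left, 0 of 32 passed (0% of 6616 genes), with an unadjusted p under 0.05 in 5 (15.6%, against 6.76%), or in 1 without the libraries that stood apart. Kcnh1 averaged 91.0 ± 19.9 CPM in BERKO and 42.5 ± 17.6 CPM in WT on the right (log2 fold change 1.11 ± 0.30 SE, adjusted p 0.241, edgeR). On the left it averaged 80.7 ± 10.0 CPM in BERKO and 46.6 ± 21.4 CPM in WT (0.79 ± 0.34 SE, adjusted p 0.699, edgeR). Kcnj4 had 0.97 ± 0.33 on the right, Kcnma1 0.68 ± 0.29 on the left and Kcnj6 1.37 ± 0.60 on the left (SE).

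Right biopsies were then compared with left biopsies within each mouse, matched by the mouse number, averaging the side effects of BERKO and WT mice. Again 0 of 53 members passed (edgeR, 0% of 10016 genes), and 4 had an unadjusted p under 0.05 (7.55%, against 5.41% of all genes). All 4 were higher on the right. The median log2 fold change, right over left, was 0.19 over the members and 0.06 over all genes.

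Kcnv1, a silent subunit that modifies other voltage-gated channels, had the smallest p. It had 66.7, 58.3, 56.0, 62.1 and 98.9 CPM on the right of the BERKO mice and 15.8, 62.2, 55.7, 37.2 and 55.0 CPM on their left, in the same order of mice. In WT mice it averaged 54.4 ± 27.1 CPM on the right and 27.0 ± 16.7 CPM on the left. The right was higher in 9 of 11 mice, and the log2 fold change was 0.91 ± 0.27 (SE, adjusted p 0.608, edgeR).

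Kcnk4, a mechanically gated leak channel, averaged 26.6 ± 14.1 CPM on the right and 15.1 ± 16.9 CPM on the left over all mice, with the right higher in 10 of 11 mice (1.21 ± 0.45 SE). Its transcripts share 572 identical bases with those of Catsperz, which it overlaps in the annotation, so reads there may belong to either gene. Kcnh7, an ether-a-go-go-related channel, averaged 43.4 ± 28.5 CPM on the right and 24.5 ± 17.0 CPM on the left (0.94 ± 0.37 SE, 9 of 11 mice), with its highest value, 122 CPM, in the right biopsy of WT replicate 3. Its transcripts share near-identical stretches with those of 11 other genes, the longest 134 bases at 96.3% identity with Emc3. Whether its reads lie in these stretches was not tested.

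Marker sums of the right and left biopsies overlapped in every list and were not tested. Excitatory neuron markers had a median of 2055 CPM on the right (1032 to 2763) and 1672 CPM on the left (1048 to 2345), and astrocyte markers 2440 CPM on the right (1693 to 3469) and 2801 CPM on the left (1820 to 3761). Endothelial markers had 292 CPM on the right (199.6 to 418) and 453 CPM on the left (117 to 608). Medians lay closer for interneuron markers (908 CPM right, 1005 CPM left), microglia markers (800 CPM right, 826 CPM left) and oligodendrocyte markers (6380 CPM right, 6543 CPM left).

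The genotype effect on right minus left was tested in the same model. No member passed (0 of 53, edgeR, 0% of 10016 genes), and 1 had an unadjusted p under 0.05 (1.89%, against 3.15% of all genes). This was Kcnj6, with 15.0 ± 11.8 CPM on the right and 26.2 ± 17.9 CPM on the left of BERKO mice, and 22.5 ± 9.54 CPM on the right and 10.49 ± 3.14 CPM on the left of WT mice. The right exceeded the left in 1 of 5 BERKO mice and in 6 of 6 WT mice, and the difference of the side effects was -2.02 ± 0.92 (log2, SE, adjusted p 1, edgeR). Kcns2 (2.84 ± 1.54 SE, or 4.38 without BERKO replicate 6) and Kcnab1 (-0.96 ± 0.53 SE, or -0.62 without BERKO replicate 5) came next. On the left, Kcns2 had 0, 3.27, 0, 0 and 13.8 CPM in BERKO replicates 2 to 6. Its value of 4.38 thus rests on a BERKO left side near the floor.

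**Figure D5:**
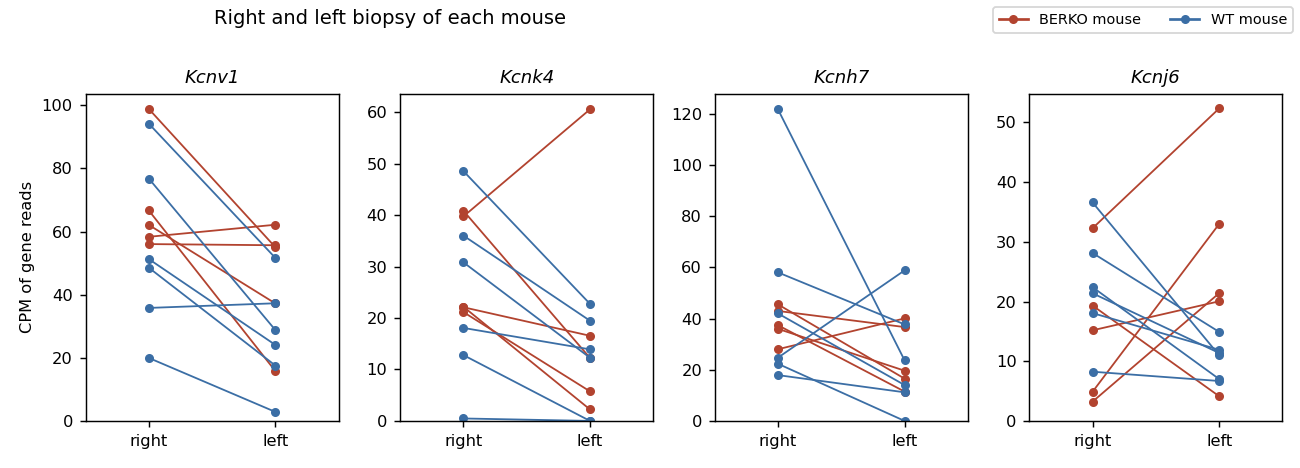
Level (CPM of gene reads after TMM) in the right and left biopsy of each mouse, joined by a line, for 3 members with an unadjusted p under 0.05 for right against left and for Kcnj6, BERKO mice in red and WT mice in blue. Most lines fall from right to left for Kcnv1, Kcnk4 and Kcnh7, and for Kcnj6 all 6 WT lines fall while 4 of 5 BERKO lines rise.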

How the data were processed

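Read counts of 22 biopsies were analysed. The authors deposited whole-number counts per feature, with an annotation giving position, strand, symbol and class. The submitters' processing notes name build mm9, Bowtie and TopHat2 2.0.12; read filters and how features were drawn are not given in the sources used here. Counts are reads after PCR. All 64 count columns were matched to biopsies by genotype, side and last digit, read as the mouse number; 0 columns were left unmapped. Up to 3 count columns were summed per biopsy (1 for the left biopsy of BERKO replicate 5). They were read as lanes from the digit after the genotype, which the labels do not say in words. Features with 1 symbol were summed per gene, in all and by promoter (upstream, 5′ UTR) or gene body class; the rest held 4.88% of endogenous reads. Spike-in and ribosomal features were left out. Annotated Kcn features outside the count table (9) were not analysed here.

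The mouse was the replicate; nothing in the labels says whether the mice shared litters. edgeR 4.0.16 in R 4.3.3 gave quasi-likelihood tests with TMM, default filter and Benjamini-Hochberg adjustment over all rows tested (threshold 0.05); each SE was derived from the log2 fold change and the F statistic. Scaling factors by TMM lay between 0.948 and 1.09, with a common biological coefficient of variation of 36.7%. Side fits kept the mouse as a block: the labels give each biopsy's mouse, but that the last digit of a column name is that mouse is a reading of the names. Right and left biopsies so matched correlated by -0.141 to 0.373 in their deviations from group means. For 3 of the 11 mice the left biopsy was the best match of the right one, so the data do not settle the reading. Class fits scaled each class to its own total, so a shift of all genes between classes is not seen in them. Scripts were tested on simulated data. Alternatives used DESeq2 and limma 3.58.1. Named genes were those past the threshold in any fit, the 12 members of smallest p for genotype, the member of highest level in each subfamily, the 3 of smallest p in each other fit and the 3 such features, and the 4 partners of smallest p. Others were named after their values were seen, and 3 members that count in every total are not reported here by name. Members, lists and rules were chosen with earlier results of these data known. Transcripts were compared by blastn at 95% identity over 50 bases or more.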

Additional observations from a re-analysis of the deposited data

Results flagged for a closer look

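In 64 sets of values checked (members by mouse within a genotype, intron shares by biopsy), 6 held a library far from the others by Dixon's ratio; chance gives about 1 in 20. In WT replicate 1, Kcnk1 was 45.8 CPM (137 to 150 CPM in the other WT mice) and Kcnip2, a calcium-binding partner of A-type channels, 75.1 CPM (8.65 to 19.3 CPM in the others). That mouse gave both of its libraries to those that stood apart. Kcnt1, a sodium-activated channel, was 2.13 CPM in BERKO replicate 5, the shallowest mouse, and 7.94 to 8.52 CPM in the other BERKO mice. Kcnu1 was 5.07 CPM in BERKO replicate 6 and 0 to 0.77 CPM in the other BERKO mice, near the level of a few reads. The right biopsy of WT replicate 3 had 29.4% of its potassium channel reads and 4.23% of all gene reads in introns, against 5.33% to 10.1% and 1.88% to 2.59% in the other right WT biopsies.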

How the results depend on the processing

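Among the genes and features of smallest p in each fit, no log2 fold change turned direction under any alternative that tested them. None of them was called in the main fits, and several subfamily sums did turn, as given below. The count of potassium channel genes passing for genotype was 0 and ranged from 0 to 1 when each mouse was left out in turn. It was 1, Kcnh1 each time, without WT replicate 4 (adjusted p 0.0369), with no expression filter (0.0464), with DESeq2 (0.0112), with thinning to 968219 reads per mouse (0.0276), with the mouse as a random effect (0.0424) and with spike-in scaling (0.0384). Spike-in scaling moved the median of all genes to 0.19 and that of the members to 0.39 (log2). It was also 1, Kcnma1, without intron features (0.0371). It was 0 without the right biopsy of WT replicate 3, and 0 when both biopsies of WT replicate 1 and the left one of WT replicate 2 were dropped. These 2 alternatives on introns and WT replicate 3 were chosen after seeing the data. Counts in the other fits were 0 under every alternative run. With the shared replicate number as a replicate block the genotype count was 0. Same-numbered BERKO and WT mice correlated by -0.0334 to 0.055. Right and left biopsies matched by mouse themselves correlated by only -0.141 to 0.373. Such values therefore cannot settle whether the shared number pairs animals. Without the mouse block the side counts were also 0. The promoter share difference of all genes ranged from -4.01 to -2.94 points when each mouse was left out. With promoter features alone, the log2 ratio of BERKO over WT sums was -0.233 for Kcnc, -2.11 for Kcnd, -0.102 for Kcnh and -0.422 for Kcnk, against 0.425, -0.236, 0.479 and 0.324 with all features. It also turned direction for Kcna (-0.0817), Kcnab (-0.269), Kcnj (-0.0991) and Kcnq (0.0597), against 0.219, 0.0667, 0.129 and -0.308 with all features. Leaving out 1 mouse, chosen after seeing the data for these sums, turned the direction of the Kcnab, Kcne, Kcnf, Kcng, Kcnip, Kcnt and Kcnu sums and of no other; for Kcnu, near the floor, the log2 ratio ranged from -2.17 to 0.00736. At this depth a member under 1.05 to 3.19 CPM, by mouse, falls below the floor of 3 reads.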
